A study of Homo sapiens with 5 samples.

Results

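The 52 genes described here act in mitosis or in the G2 phase before it and many of them are used to score the cell cycle in single cells. They were taken by a fixed list of symbols from the gene rows of the larger count matrix, where all 52 were found among 36601 genes. The rule that picks them uses no measured value, although the list was drawn up with earlier results of these data known. They were read as RNA (UMIs, unique molecular identifiers that count captured RNA molecules) and as open chromatin at their gene starts (ATAC counts in peaks).

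Both readouts came from the same nuclei. Nuclei of 5 human lung adenocarcinoma lines, A549, H1975, H2228, H838 and HCC827, each grown on its own to near confluence with no treatment named, frozen and then mixed, were captured with the 10x Multiome kit, which reads RNA and ATAC under one barcode. The droplets were split into an 80% and a 20% portion, each of which gave 1 RNA and 1 ATAC library, so that there were no replicates and no test across samples could be made. Long-read libraries of the study were not used here. The 80% matrix held 6557 nuclei and 95455518 UMIs, with a median of 13306 UMIs and 8784 ATAC counts per nucleus, and the 20% matrix held 1286 nuclei with a median of 10540.5 UMIs. Intervals in brackets are exact 95% Poisson or binomial intervals and cover counting error only.

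No nucleus carries a cell line label in the files used. Nuclei were therefore placed in 5 RNA clusters built without the 52 genes and without the other cell cycle lists, and the clusters are called by number. Cluster 0 held 2469 nuclei and was led by MEG8, MEG3 and CDH11, cluster 1 held 1474 (ST6GAL2, NTRK3 and ALDH1A1), cluster 2 held 1448 (AC069277.1, CARD18 and LINC02055), cluster 3 held 838 (DHRS2 and PEG10 among others) and cluster 4 held 328 (AC090578.1, EGFR and PIP4K2C). Clustering the same nuclei by ATAC gave 6 clusters, a number that 2 of 5 other random seeds also gave (5 of 5 for RNA). In each run the resolution was raised until at least 5 clusters of a minimum size were reached. The number of clusters was thus largely set by that rule. Of RNA cluster 3, 441 and 350 nuclei fell into separate ATAC clusters. All 5 epithelial markers were detected in every cluster, with 4019 UMIs for CDH1 as the lowest total. Of the immune, endothelial and fibroblast markers, PTPRC had 34 UMIs in the whole library, CD3E 4, CD79A 141, VWF 21, CDH5 42, PECAM1 589, COL1A2 569 and DCN 3, whereas CD68 had 2022 and COL1A1 12175. A total of 159 barcodes was called in both portions (2.43% of the 80% and 12.4% of the 20% nuclei), and 385 nuclei of the 80% matrix were called as doublets.

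In a dividing cell, cyclin B and its kinase CDK1 drive entry into mitosis. Aurora and other mitotic kinases, kinetochore proteins, motor proteins and condensins then build the spindle and pull the compacted chromosomes apart, and the anaphase-promoting complex ends mitosis by marking cyclin B for destruction. Many of these genes are held silent early in the cycle and switched on in G2 through a pair of promoter elements, the CHR and the CCAAT box, bound by the DREAM or MYB-MuvB complexes and by NF-Y. The nuclear envelope breaks down during mitosis, and these libraries were made from nuclei.

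The promoter sequences are shown first, because the letters of these elements were far more common in front of the 52 genes than in front of genes at large. Of the 52 genes, 44 had an entry among the RefSeq promoters of GRCh38.p14, each 300 bases long with 250 before the start. Those without one were UBE2C, AURKA, TPX2, BIRC5, TTK, HMGB2, CDCA2 and ANP32E. TTTGAA or TTCGAA on either strand, the letters of the CHR, stood in 33 of the 44 promoters, which is 75% (59.7 to 86.8), against 16.6% of all 27305 promoters. CCAAT on either strand stood in 31 of 44, which is 70.5% (54.8 to 83.2), against 35.7% of all. Both were present in 27 of 44 promoters, 61.4% (45.5 to 75.6), against 6.58% of all, and matches of the 2 motifs can share a base, as they do in CDCA8. The 45 CHR matches lay close to the start, at a median of 29 bases before it, with 28 of them within 50 bases, and the 78 CCAAT matches lay farther out, at a median of 87 bases before it.

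Below are the 250 bases from 220 before to 30 after the start of the gene in each role group whose RNA was raised most in nuclei rich in the other genes, among those with an entry, and of CTCF, where the difference was smallest. Capitals mark matches to either motif on either strand. ATTGG therefore marks CCAAT on the opposite strand, and a CHR on that strand reads as TTCAAA. Each is written 5′ to 3′ on the strand of its gene.
CDCA3 (chr12:6851257-6851506, - strand): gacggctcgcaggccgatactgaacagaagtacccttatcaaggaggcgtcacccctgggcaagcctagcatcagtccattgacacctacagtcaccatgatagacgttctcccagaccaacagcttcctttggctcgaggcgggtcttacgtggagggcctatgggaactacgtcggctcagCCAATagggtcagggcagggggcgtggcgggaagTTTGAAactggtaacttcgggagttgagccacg
CDCA8 (chr1:37692296-37692545, + strand): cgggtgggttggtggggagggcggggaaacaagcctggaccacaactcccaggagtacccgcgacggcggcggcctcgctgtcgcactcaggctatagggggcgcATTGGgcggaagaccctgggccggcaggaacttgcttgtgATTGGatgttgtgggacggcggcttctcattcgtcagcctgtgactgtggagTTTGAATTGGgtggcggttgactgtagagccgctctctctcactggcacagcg
CENPE (chr4:103198314-103198563, - strand): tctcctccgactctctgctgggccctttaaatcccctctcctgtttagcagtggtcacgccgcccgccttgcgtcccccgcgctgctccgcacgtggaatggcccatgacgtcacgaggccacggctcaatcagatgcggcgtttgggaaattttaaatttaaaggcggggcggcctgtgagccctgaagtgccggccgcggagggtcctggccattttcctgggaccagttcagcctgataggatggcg
GTSE1 (chr22:46296650-46296899, + strand): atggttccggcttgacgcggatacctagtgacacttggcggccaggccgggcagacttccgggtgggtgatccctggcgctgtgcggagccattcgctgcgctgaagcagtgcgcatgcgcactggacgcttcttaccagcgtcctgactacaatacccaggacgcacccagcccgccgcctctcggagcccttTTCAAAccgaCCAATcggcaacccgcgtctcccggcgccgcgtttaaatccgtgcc
KIF23 (chr15:69414129-69414378, + strand): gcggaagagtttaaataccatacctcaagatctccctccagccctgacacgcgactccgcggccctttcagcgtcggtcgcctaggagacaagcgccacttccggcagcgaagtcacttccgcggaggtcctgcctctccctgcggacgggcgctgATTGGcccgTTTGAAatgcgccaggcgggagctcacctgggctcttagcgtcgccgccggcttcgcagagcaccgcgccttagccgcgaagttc
TOP2A (chr17:40417867-40418116, - strand): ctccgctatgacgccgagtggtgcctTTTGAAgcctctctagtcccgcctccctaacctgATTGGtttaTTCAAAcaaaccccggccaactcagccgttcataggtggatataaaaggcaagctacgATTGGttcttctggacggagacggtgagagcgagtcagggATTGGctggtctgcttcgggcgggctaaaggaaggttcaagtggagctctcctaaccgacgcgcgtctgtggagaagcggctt
TMPO (chr12:98515353-98515602, + strand): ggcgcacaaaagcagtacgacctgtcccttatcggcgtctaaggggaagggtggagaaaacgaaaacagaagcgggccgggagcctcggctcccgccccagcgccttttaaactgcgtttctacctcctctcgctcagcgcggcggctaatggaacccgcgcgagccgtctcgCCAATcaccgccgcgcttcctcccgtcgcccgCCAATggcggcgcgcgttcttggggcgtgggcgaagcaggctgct
CTCF (chr16:67562306-67562555, + strand): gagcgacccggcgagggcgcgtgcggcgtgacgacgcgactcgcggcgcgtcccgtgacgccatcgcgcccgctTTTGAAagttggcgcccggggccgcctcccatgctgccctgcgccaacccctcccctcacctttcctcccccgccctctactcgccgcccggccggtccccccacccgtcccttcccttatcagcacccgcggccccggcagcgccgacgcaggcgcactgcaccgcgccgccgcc

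CDCA3, CDCA8, GTSE1 and KIF23 held a CHR match within 55 bases of the start together with a CCAAT match. In CDCA8 the CHR match began 23 bases before the start, and its last A was the first base of an inverted CCAAT. TOP2A, which encodes the topoisomerase that untangles sister chromatids, held 2 CHR and several CCAAT matches, but its CHR matches lay 194 and 151 bases before the start. CENPE, a kinetochore motor with the third largest RNA ratio of the 52, held neither motif in this window, TMPO held CCAAT alone, and the single CHR match of CTCF lay 146 bases before the start with no CCAAT. Among the 44 genes a CHR match stood in 22 of the 30 promoters of genes at or above a ratio of 4 in the comparison described next, and in 11 of the 14 below it. A match is one of letters only, and no binding was measured.

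Together the 52 genes took 528020 UMIs of the 80% matrix, or 0.553% of all (0.552 to 0.555), and 0.531% of the 20% matrix. The 14 spindle genes gave 24.4% of these UMIs, the 8 genes of chromosome structure 23.2%, the 10 genes of cyclin and CDK control 16.6%, the 6 kinetochore genes 12.5%, the 8 mitotic kinases and partners 9.78%, the 3 cytokinesis genes 8.34% and the 3 nuclear envelope genes 5.19%. Levels between genes are not compared here, as UMIs are not set per length. To put nuclei on one depth, each was thinned to 5000 UMIs, which left out 101 of the 80% and 104 of the 20% nuclei. The median nucleus then held 15 UMIs of the 52 genes, the lowest 10% at most 5.5 and the highest 10% at least 62, with 177 as the maximum. Most nuclei held low values and a long tail reached higher ones, and 17.6% of nuclei (16.6 to 18.5) held 3 times the median or more. That boundary falls in a continuous range, with 339 nuclei within 10% of it. The 10% of nuclei with the highest values held 33.8% of all UMIs of the 52 genes.

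**Figure D1:**
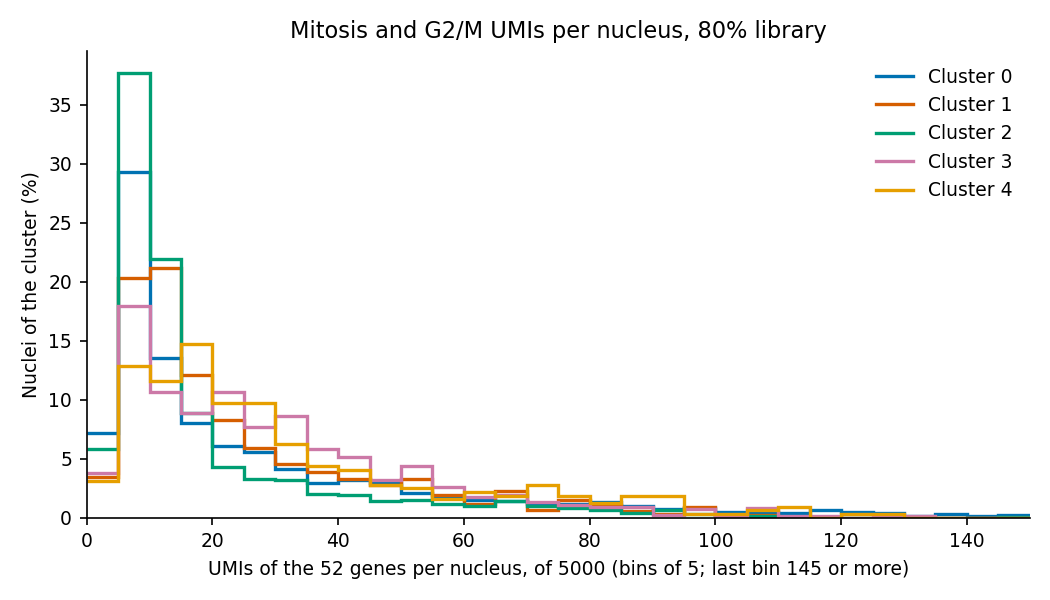
Share of the nuclei of each RNA cluster (y axis, percent) by the number of UMIs of the 52 genes after thinning to 5000 UMIs (x axis, bins of 5), 80% library. In all 5 clusters the highest bin lies below 20 UMIs and a long tail follows, and cluster 2, with a median of 11 UMIs, lies farthest to the left.

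The clusters differed in how much of this RNA they held. The share was 0.604% in cluster 0, 0.517% in cluster 1, 0.378% in cluster 2, 0.623% in cluster 3 and 0.698% in cluster 4 (0.691 to 0.706). In the 20% library the same clusters stood at 0.558%, 0.536%, 0.389%, 0.670% and 0.490%. Cluster 2 was thus lowest in both libraries, while cluster 4 was highest in the 80% library but not in the 20% library, where it held only 55 nuclei. The share of nuclei at 3 times the overall median or more followed the same pattern, with 10.9% (9.34 to 12.6) in cluster 2 and 17.0% to 23.5% in the other clusters. RNA cluster 3 was not uniform: its 441 nuclei in ATAC cluster 3 held 0.715% and its 350 nuclei in ATAC cluster 4 held 0.482%. From these shares, fewer cycling nuclei and less of this RNA per cycling nucleus cannot be told apart.

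The next comparison asks whether the 52 genes moved together from nucleus to nucleus within a cluster. For each gene, nuclei were ranked within their cluster by the other 51 genes, and its mean UMIs in the top 10% (646 nuclei) were divided by its mean in the remaining 90% (5810 nuclei). Of the 52 genes, 50 were at least 2-fold higher in the top nuclei, against 1.83% of the 15789 genes with 50 UMIs or more ranked by all 52. All 52 passed that minimum. Every one of the 52 intervals lay above 1 (11.4% of all genes), none lay below 1 (20.4% of all genes), 51 genes were above 1 in each of the 5 clusters (5.3% of all genes), and 43 were at least 2-fold higher in each of the 5 (0.608%). The ratios ran from 1.41 to 8.44 with a median of 4.74, beside a median of 0.935 over all genes tested. In the 20% library 48 of the 52 reached 2, against 2.26% of the genes tested there.

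Ranked by all 52 genes, the top nuclei held a median of 80 UMIs of these genes against 13 in the rest, a difference that the ranking makes. The groups of nuclei also differed in other measures. The top nuclei had medians of 14697 against 13299 RNA UMIs before thinning and 9648 against 8786 ATAC counts. Doublet calls were rarer among them, at 2.01% against 6.37%. The median for 43 S-phase genes was 12.5 UMIs against 11, and the top nuclei were higher in cluster 2 alone, at 17 against 7, while in the other 4 clusters they held 10 to 14 and the rest 12 to 18. The part of depth in the ratios was not tested beyond the thinning. Without the doublets, and without the barcodes called in both portions, the count of 50 of 52 was the same.

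**Figure D2:**
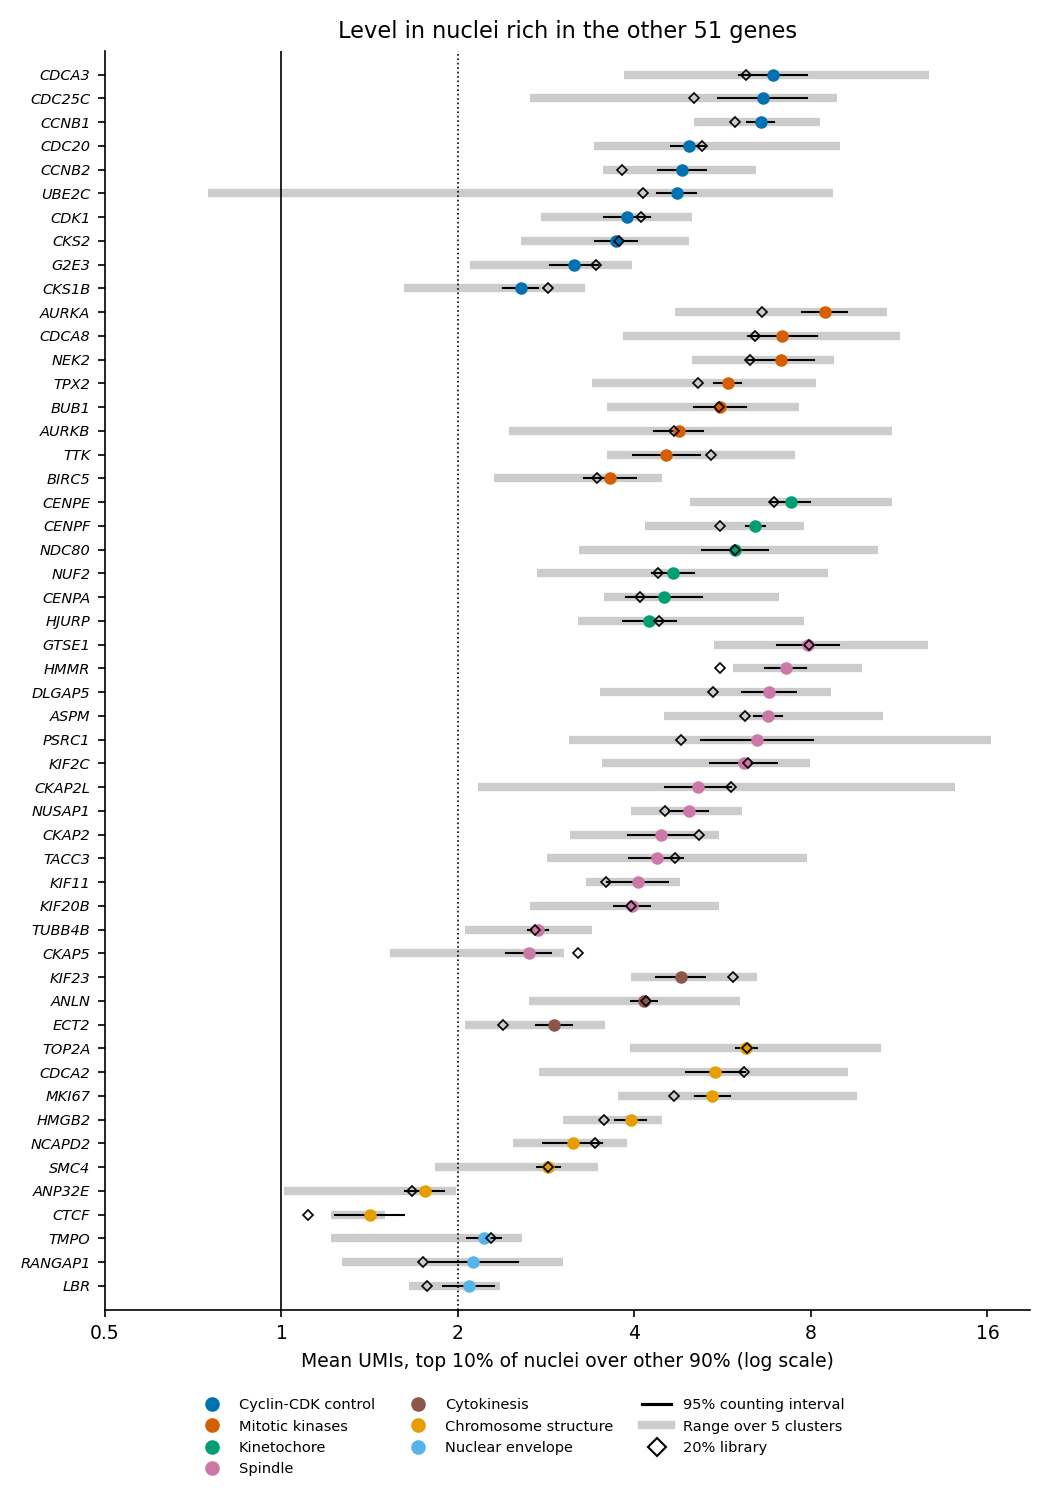
Mean UMIs of each of the 52 genes in the 10% of nuclei richest in the other 51 genes over the mean in the remaining 90% (x axis, log scale), grouped by role. Points are the 80% library with 95% counting intervals, grey bars the range over the 5 clusters and diamonds the 20% library; all points lie above 1, and UBE2C is the one gene whose grey bar crosses 1.

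All 10 genes of cyclin and CDK control were at least 2-fold higher in the top nuclei, with a median ratio of 4.77. CCNB1, the cyclin B that activates CDK1, went from 0.572 UMIs per nucleus in the rest to 3.76 in the top nuclei, a ratio of 6.57 (6.23 to 6.93), and was between 5.05-fold and 8.28-fold higher within clusters. CDC20, the activator of the anaphase-promoting complex, went from 0.384 to 1.901, a ratio of 4.95 (4.61 to 5.31). The smallest ratio of the group, 2.56 (2.39 to 2.73), belonged to CKS1B, a CDK-binding subunit that also acts at the G1/S transition. From the lowest to the highest decile of nuclei by the other genes, CKS1B went from 0.390 to 1.73 UMIs and CCNB1 from 0.178 to 3.77. The largest was CDCA3, which recruits substrates for destruction in the cell cycle, at 6.90 (6.04 to 7.86).

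The 8 mitotic kinases and their partners were all at least 2-fold higher, with a median of 5.69. AURKA, the Aurora kinase of centrosomes and spindle poles, had the largest ratio of all 52 genes, from 0.180 to 1.52 UMIs per nucleus, 8.44 (7.73 to 9.22), and 6.60 in the 20% library. Along deciles of the ranking its level was 0.0974 UMIs in the lowest decile, 0.104 in the fifth, 0.605 in the ninth and 1.53 in the highest, so that most of its difference lay between the last deciles. TPX2, which activates AURKA on the spindle, went from 0.582 to 3.36, a ratio of 5.77 (5.46 to 6.09). AURKB, the kinase of the chromosomal passenger complex, went from 0.207 to 0.983, a ratio of 4.76 (4.32 to 5.24), so that the intervals of the Aurora kinases did not overlap.

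The 6 kinetochore genes were 4.24-fold to 7.39-fold higher. CENPF, a large protein of the outer kinetochore, went from 1.14 to 7.31 UMIs per nucleus, a ratio of 6.43 (6.19 to 6.67), and followed the sum of the other genes most closely of all 52, with a correlation of 0.780 over 6456 nuclei after removal of cluster means. The nuclei share library and depth, so this correlation is a description. It also depends on the UMIs of a gene, and CENPF is among the genes of the set with the most. That part was not tested. CENPE, the motor that brings chromosomes to the spindle equator, went from 0.255 to 1.88, a ratio of 7.39 (6.84 to 7.97). NUF2, a subunit of the NDC80 complex that holds microtubules, went from 0.287 to 1.34, a ratio of 4.66 (4.29 to 5.06).

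Among the 14 spindle genes the ratios ran from 2.64 to 7.91. GTSE1, a microtubule-binding protein that counteracts p53 in G2, had the second largest ratio of all, from 0.0986 to 0.780 UMIs, 7.91 (7.004 to 8.93), and 7.94 in the 20% library. ASPM, which organises spindle poles, went from 0.513 to 3.46, a ratio of 6.75 (6.39 to 7.13), and KIF20B, a kinesin, from 0.436 to 1.73, a ratio of 3.97 (3.70 to 4.26). TUBB4B, a beta tubulin, went from 1.79 to 4.89, a ratio of 2.74 (2.63 to 2.85), and had a mean of 1.26 in the lowest decile. Tubulin genes have close paralogs, and the sources used here do not give how shared reads were counted. All 3 cytokinesis genes were at least 2-fold higher. ANLN, the scaffold of the contractile ring, went from 0.818 to 3.40 UMIs, a ratio of 4.16 (3.95 to 4.37). ECT2, the exchange factor that activates RHOA at the cleavage site, had a ratio of 2.92 (2.72 to 3.13), and KIF23, a kinesin of the central spindle, one of 4.80 (4.36 to 5.29).

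The ratios of the genes of chromosome structure ran from 1.41 to 6.21. TOP2A went from 1.01 to 6.26 UMIs per nucleus, a ratio of 6.21 (5.97 to 6.47), HMGB2, a chromatin protein, was 3.94-fold higher (3.70 to 4.19) and SMC4, a core subunit of condensin, 2.85-fold (2.72 to 2.99). At the other end stood the only genes under 2: ANP32E, a histone chaperone that removes H2A.Z, at 1.75 (1.62 to 1.895), and CTCF, an insulator protein that acts throughout the cycle, at 1.41 (1.23 to 1.62). CTCF differed little along the whole ranking, from 0.235 UMIs in the lowest decile to 0.386 in the highest, and its correlation with the other genes was 0.0703. CTCF was at 1.11 in the 20% library. The 3 nuclear envelope genes were low as a group, with TMPO, a lamina protein, at 2.22 (2.07 to 2.37), RANGAP1, which activates the GTPase of Ran, at 2.12 (1.78 to 2.53) and LBR, the lamin B receptor, at 2.09 (1.89 to 2.31), and in the 20% library RANGAP1 and LBR were at 1.75 and 1.77.

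Genes of the cycle outside the set were compared in the same way, with all 52 genes ranking the nuclei. Of 38 further mitosis genes that are not in the set, 34 were at least 2-fold higher, against 1.83% of all genes tested. The median of the 38 was 4.48. PLK1, the polo-like kinase of mitotic entry, went from 0.164 to 1.58 UMIs per nucleus, a ratio of 9.65 (8.82 to 10.6). That was above the ratios of all 52 in the 80% library, though its interval overlapped that of AURKA (7.73 to 9.22). In the 20% library PLK1 was at 7.62, under GTSE1 at 7.94. CCNA2, cyclin A, went from 0.123 to 0.604, a ratio of 4.89 (4.31 to 5.54). Of 9 regulators of these genes FOXM1 alone, a transcription factor of the G2 genes, reached 2, from 0.0644 to 0.225. Its ratio was 3.49 (2.86 to 4.24), and it was above 1 in 4 of the 5 clusters. E2F1 alone of the 9 was at or under 0.5, at 0.404 (0.288 to 0.552). It was above 1 in none of the clusters and at 0.488 in the 20% library. MYBL2, the MYB subunit of the activating complex, went from 0.156 to 0.232, a ratio of 1.49 (1.25 to 1.77), and was above 1 in 3 of the 5 clusters. Pooled over clusters, none of the 43 S-phase genes reached 2 and their median was 0.887. At or under 0.5 were 5 of them, against 6.34% of all genes tested. These were UNG, CCNE2, POLA1, DTL and WDR76, from 0.325 to 0.499. CCNE2 alone of the 5 was under 0.5 in the 20% library too, at 0.364, and the others were at 0.535 to 0.752. WDR76 was at 1.5 in 1 of the 5 clusters, and the other 4 genes were below 1 in each. Some further S-phase genes, though not all, reached 2 within a cluster, with RRM2 at up to 3.75 and CDC45 at up to 3.36. In cluster 2 the top nuclei held a median of 17 S-phase UMIs against 7 in the rest.

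Within the top nuclei, those with fewer S-phase UMIs (324 nuclei, median 9) were compared with those with more (322 nuclei, median 17). The groups held a median of 83 and 79 UMIs of the 52 genes and of 13992 and 15668 RNA UMIs. Of the 52 genes, 12 had an interval above 1, against 4.11% of 8864 genes, and 2 had one below 1, against 5.49%. Those higher where S-phase RNA was lower included NEK2, a centrosome kinase, at 1.40 (1.15 to 1.71), DLGAP5, a spindle protein, at 1.37 (1.17 to 1.62), CCNB2 at 1.33 (1.14 to 1.55) and CCNB1 at 1.33 (1.22 to 1.44). None reached 1.5, against 2.23% of all genes. The 2 lower there were TMPO at 0.854 (0.757 to 0.962) and CTCF at 0.725 (0.558 to 0.938). In the 20% library CCNB1 was at 1.31, CCNB2 at 1.39, NEK2 at 1.13 and TMPO at 0.814, while DLGAP5 was at 1.01 and CTCF at 1.14. Of the 12 genes, 10 were above 1 there, and CKS1B and CKS2 were at 0.934 and 0.927. Within clusters of the 80% library 3 of the 12 were above 1 in all 5, and CCNB1 and CCNB2 in 3 of 5, with lowest values of 0.898 and 0.822. How often genes at large were above 1 in the 20% library or in all 5 clusters was not counted, so these counts describe the 12 alone.

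The same nuclei were then compared by ATAC. Every one of the 52 genes had a peak within 1000 bases of a start listed in the deposited feature table, for 158342 peaks in all. Counts at the start were scaled to all ATAC counts of the nuclei (CPM), and as 90.1% of the ATAC values were even, which a count of both ends of each fragment would give, intervals rest on the counts divided by 2. Accessibility differed far less than RNA. The ratio of the top nuclei to the rest had a median of 1.15 over the 52 genes and of 1.04 over all genes. Of the 52, 1 reached 1.5, against 1.87% of 22499 genes, so the share among the 52 was near the background. For 24 of the 52 the interval lay above 1, against 12.6% of all, and for 1 it lay below, against 4.21%.

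CKAP2L, a spindle protein, was the one gene at 1.5, with 55.6 CPM at its start in the top nuclei and 37.0 in the rest, a ratio of 1.504 (1.29 to 1.75). It was above 1 in all 5 clusters, and without the barcodes called in both portions none of the 52 reached 1.5. CCNB1 went from 41.6 to 59.1, a ratio of 1.42 (1.22 to 1.65), again with all 5 clusters above 1. LBR, whose RNA ratio was 2.09, had a start ratio of 1.47 (1.25 to 1.73). AURKA, with the largest RNA ratio, stood at 82.8 in the rest and 83.5 in the top nuclei, a ratio of 1.01 (0.891 to 1.14), and GTSE1 at 1.13 (0.927 to 1.38). The start peak of AURKA is also that of CSTF1. CKAP5, a microtubule polymerase with 3 peaks over its listed starts, was the gene whose interval lay below 1, at 0.815 (0.673 to 0.981). The order of the genes by RNA was thus not their order by accessibility.

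**Figure D3:**
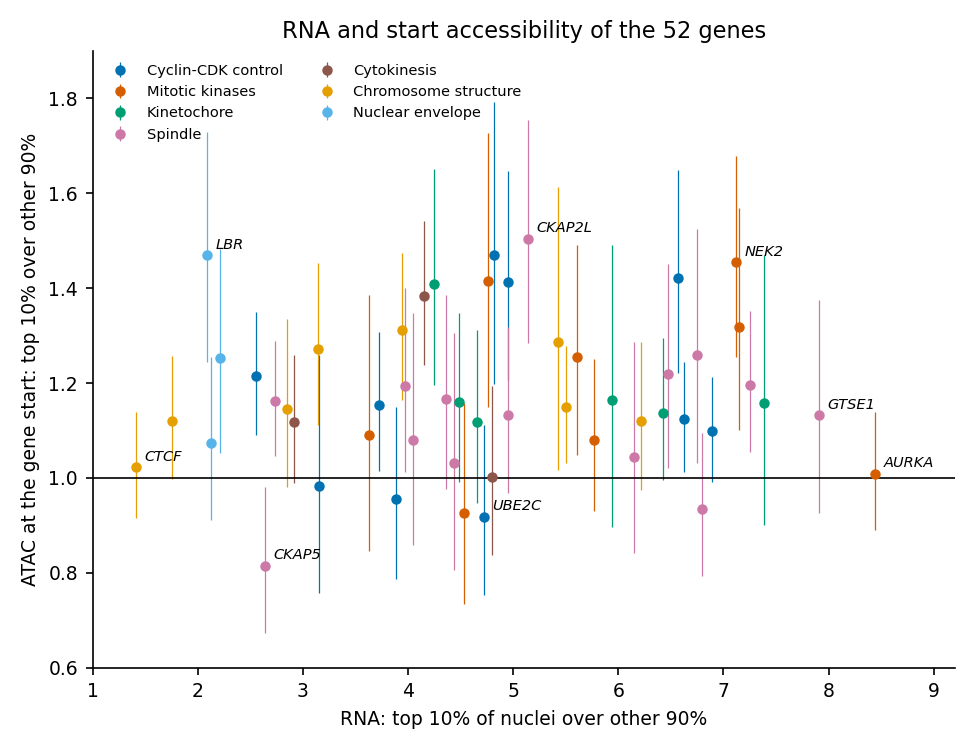
Ratio of the top 10% of nuclei to the remaining 90% in RNA (x axis) and in ATAC CPM at the gene start (y axis) for the 52 genes, with 95% counting intervals of the ATAC ratio. RNA ratios span 1.41 to 8.44, while start ratios stay between 0.815 and 1.504.

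Along deciles of the ranking by the RNA of all 52 genes, ATAC counts at all their starts together were 2432 CPM in the lowest decile, 2534 in the fifth and 3010 in the highest. The part of all ATAC counts that fell near any gene start differed as well, from 53.8% in the lowest decile to 57.0% in the highest, and its part in the ratios of single starts was not tested.

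Each gene was next compared between the 5 clusters, with RNA as CPM of all UMIs and starts as CPM of all ATAC counts of a cluster, to ask which genes departed from the others where a cluster held more or less of this RNA. Of the 52 genes, 35 differed at least 2-fold between their highest and lowest cluster in RNA, against 61.8% of 12440 genes, and 12 did so at their starts, against 51.4% of 16852. The share among the 52 genes was thus near the background in RNA and under it in ATAC. For 35 of the 52 genes the lowest cluster was cluster 2, and for 23 the highest was cluster 4. In the 20% library cluster 4 was highest for 5 of those 23 and for no other gene, while cluster 3 was highest for 28. Over all clusters the libraries shared the highest cluster for 32 of the 52 genes. How often a cluster was highest or lowest, or shared by the libraries, was not counted over all genes, so these counts describe the 52 alone. On the log2 scale, as the level in a cluster over the mean of the other 4, the median of the 52 genes was 0.11, -0.24, -0.73, 0.20 and 0.41 in clusters 0 to 4, beside values between -0.17 and -0.04 for all genes. The distance of a gene from that median subtracts the same shift from every gene, also from one that follows the set little. By this distance 9 genes departed by 2-fold or more in at least 1 cluster. Of the 12440 genes compared, 60.2% lay that far from the same median, which is that of the 52 genes themselves and so lies nearer to them.

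**Figure D4:**
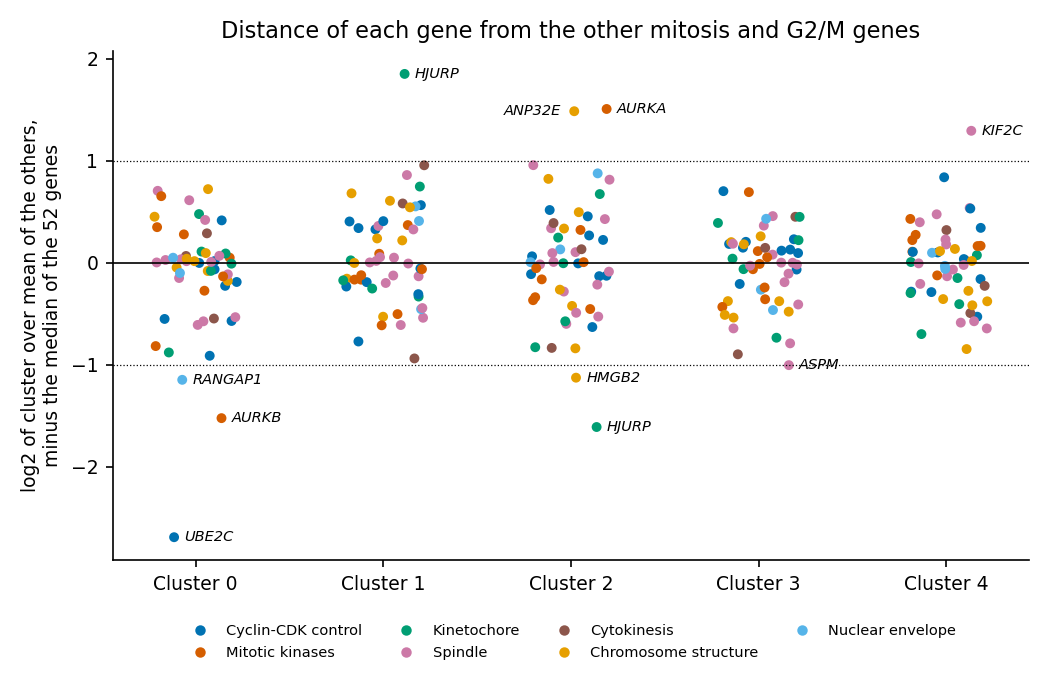
Distance of each of the 52 genes from their median in each RNA cluster (y axis, log2 of the level in the cluster over the mean of the other clusters, minus the median of the 52 genes), coloured by role. Genes beyond the dotted lines at 1 and -1 are named; UBE2C in cluster 0 lies lowest, at -2.69.

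UBE2C departed most. It encodes the ubiquitin-conjugating enzyme that works with the anaphase-promoting complex to start the chains on cyclin B. Its RNA stood at 28.2 CPM (26.6 to 29.9) in cluster 0, at 103 in cluster 1, 121 in cluster 2, 225 in cluster 3 and 229 in cluster 4. In the 20% library the same clusters had 23.9, 103, 106, 179 and 142. Cluster 0 was thus lowest in both libraries, and in the 80% library its interval overlapped none of the others. The 52 genes as a whole were not low there, and the distance of UBE2C from their median was -2.69 on the log2 scale.

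The start of UBE2C was almost without ATAC counts in the same cluster. Its single start peak (chr20:45812036-45812936, GRCh38) had 4.09 CPM (3.12 to 5.28) in cluster 0, from 119 counts, and 57.1, 91.2, 49.8 and 52.4 in clusters 1 to 4. The separately called peak of the 20% library gave 1.92 in cluster 0, from 12 counts, and 58.1 to 99.1 in the others. Within 100 kb, 6 peaks at the starts of other genes with a mean of 20 CPM or more in clusters 1 to 4 were lower in cluster 0 than the mean of the others too, but by less: their cluster 0 level was 0.493 to 0.616 of the mean of the other clusters, against 0.0654 for UBE2C. Away from starts, other peaks came nearer to UBE2C. The lowest were at 0.095 and 0.145, where cluster 2 had 41.99 and 25.1 CPM, clusters 1, 3 and 4 had 1.32 to 8.43 and cluster 0 had 1.41 and 1.17. Of the 6 start peaks, the nearest, at starts of WFDC3 and DNTTIP1, had 19.4 CPM in cluster 0 and 23.3 to 50.1 in the others. The next start peak, at starts of TNNC2 and SNX21, had 22.6 in cluster 0 and 21.2 to 80.9 in the others. Genes within 10 Mb had a median log2 of -0.73 in RNA and -0.79 at their starts in cluster 0, beside -2.58 and -3.93 for UBE2C. The region thus stood lower there as well.

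Within cluster 0, UBE2C did not follow the other genes of the set. Nuclei were ranked here by the other genes of the set, without UBE2C. Thinned UBE2C counts were 24 in the 244 top nuclei and 289 in the remaining 2199, a ratio of 0.748. By the same ranking, the UBE2C ratio in clusters 1 to 4 was 3.465 to 8.717. Nuclei of cluster 0 called as doublets had 66.5 CPM of UBE2C (59.9 to 73.6), and without them the cluster stood at 22.3 (20.8 to 23.9), a distance of -3.08. The part of RNA from other nuclei in the UMIs that remain was not tested. The activator CDC20, which acts in the same step, had 105 CPM in cluster 0 and 75.4 to 255 in the others.

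**Figure D5:**
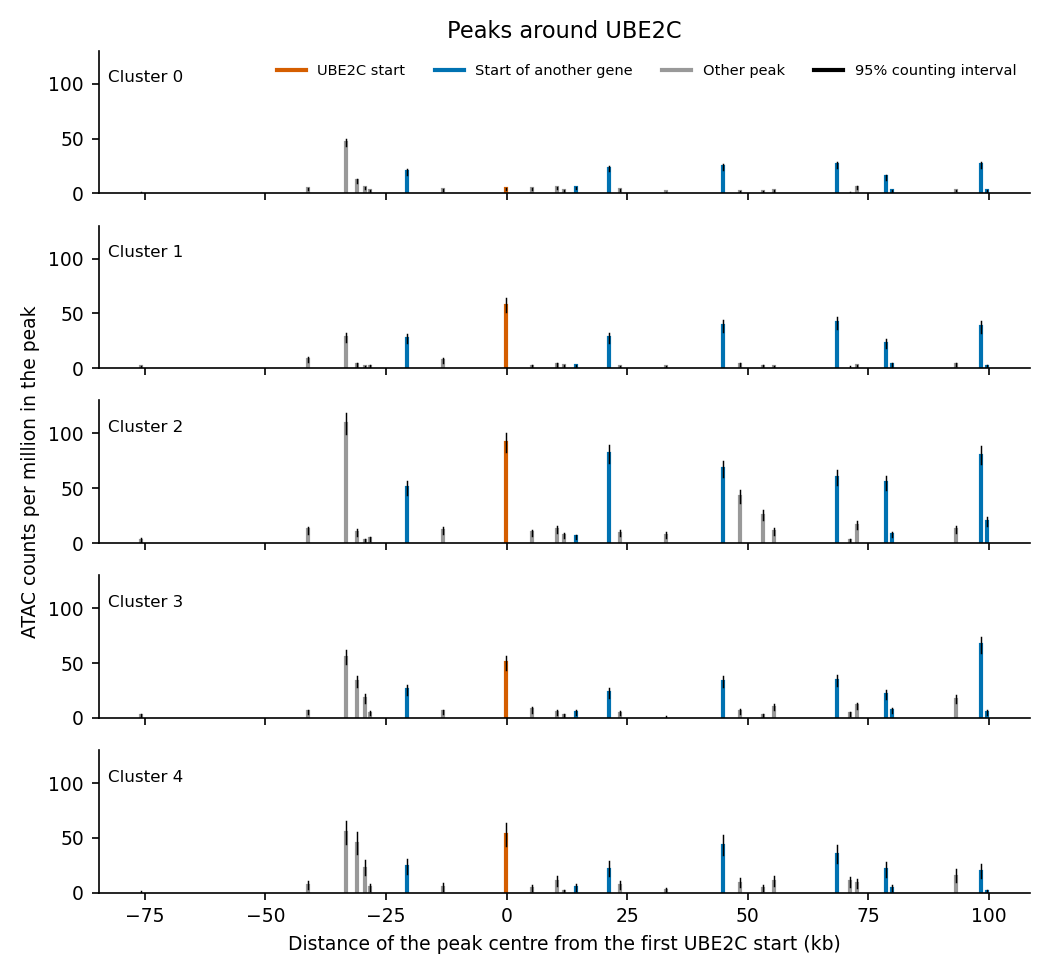
ATAC CPM in each peak within 100 kb of UBE2C, in 5 panels for the 5 RNA clusters (y axis), by the distance of the peak centre from the first UBE2C start (x axis, kb), with 95% counting intervals. The UBE2C start (orange) is at 4.09 in cluster 0 and at 49.8 to 91.2 in the other clusters, while starts of other genes (blue) have counts in all 5.

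HJURP departed in both directions. It encodes the chaperone that places the centromere histone CENPA. Its RNA was 115.5 CPM in cluster 1 and 12.5 (10.96 to 14.2) in cluster 2, with 54.2, 39.3 and 45.3 in clusters 0, 3 and 4, and 123.5 and 10.5 in clusters 1 and 2 of the 20% library. That is 9.24-fold between the highest and lowest cluster, the widest span of the 52 genes. The start did not follow in cluster 2, with 37.3 ATAC CPM against 48.9 in cluster 1 and 30.1 to 37.7 in the others. Neighbouring genes were at a median log2 of -0.36 in RNA in cluster 2, beside -2.35 for HJURP and -0.09 for all genes, and at 0.10 in cluster 1, beside 1.61 for HJURP. CENPA itself had 12.2 CPM in cluster 2 and 19.9 to 44.1 in the other clusters.

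The remaining departures were smaller and for some of them the neighbouring genes differed in the same direction. AURKB was low in cluster 0, at 35.5 CPM against 43.3 to 131.6, a distance of -1.53. Its log2 over the mean of the other clusters was -1.42. On that scale genes within 10 Mb had a median of -1.11 in RNA and -1.19 at their starts there. AURKA was high in cluster 2, at 108 against 47.9 to 84.3, a distance of 1.51. Its log2 over the mean of the other clusters was 0.775, under the 0.86 of its neighbours. Its start was high there too (168 CPM against 61.5 to 82.9), at a log2 of 1.21 beside 1.05 at the starts of neighbours. ANP32E was high in cluster 2, at 214 against 112.5 to 149, a distance of 1.49. Its log2 over the mean of the other clusters was 0.75, under 2-fold, with neighbours at 0.09. Its start was at 90.7 against 60.5 to 95.2.

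HMGB2 was at 50.5 in cluster 2 against 100.3 to 241.5, a distance of -1.13. Its log2 over the mean of the other clusters was -1.86, with neighbours at -0.87. In the 20% library the distance of HMGB2 was -0.84, under the 2-fold line. RANGAP1 was at 17.6 in cluster 0 against 21.7 to 45.4, a distance of -1.15. Its log2 over the mean of the other clusters was -1.04, with neighbours at -0.60. ASPM was at 110.5 in cluster 3 against 79.5 to 269 in the others, a distance of -1.01, just past the 2-fold line. Its log2 over the mean of the other clusters was -0.80, under 2-fold. The parts of that cluster differed, with 130 and 83.2 CPM. KIF2C, a kinesin that takes microtubules apart, was at 97.8 in cluster 4 against 26.5 to 33.9, a distance of 1.29, but in the 20% library, where cluster 4 had 28 of its UMIs, it was at 43.3 and no longer stood 2-fold apart. The part of the neighbouring regions in these distances was not tested.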

How the data were processed

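The authors deposited raw counts (UMIs per gene, ATAC counts per peak) on GRCh38, in matrices whose file headers name Cell Ranger ARC 2.0.0; the sources do not state the gene annotation release or the handling of reads shared by paralogs (not given in the sources used here). The deposited counts were used as they are, with 6557 and 1286 nuclei. Nuclei were clustered in Seurat 5.3.0 (R 4.3.3, resolution 0.05) on 1920 variable genes after 80 cell cycle genes of the lists were left out. The resolution was the lowest tried that gave at least 5 clusters of a minimum size. Nuclei of the 20% matrix were assigned by correlation to the cluster means, a rule that recovered the cluster of 98.2% of the 80% nuclei. The means were built from those same 80% nuclei, so this rate cannot show how well the 20% nuclei were assigned. Scrublet (scanpy 1.11.5) marked doublets, which were kept, with their removal as an alternative. Nuclei with 5000 UMIs or more were thinned to 5000. Counts, ratios and exact intervals were computed in python 3.11.15 with numpy 2.4.6, scipy 1.17.1 and pandas 2.3.3. Background genes needed 50 UMIs or ATAC counts, and 500 for the comparison of clusters. With 1 library per portion no p-values were computed. On simulated counts with known ratios, 95.9% of intervals held the true ratio. The simulated nuclei varied by counting error alone, with a fixed ratio per gene and a high group set apart from the rest. The simulation therefore cannot show how often the intervals hold for the real nuclei, which form a continuous range.

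The members and lists were chosen with earlier results of these data known. Genes named with values were the 3 members with the most UMIs in each of 7 role groups, the 3 with the largest and the 3 with the smallest ratio, every member 2-fold or more from the members' median in a cluster, and PLK1, CCNA2, FOXM1 and MYBL2. CDCA3, CDCA8, CCNB2, NEK2, DLGAP5, CKAP2L, CKAP5, CENPA, E2F1 and the S-phase genes with values were named after their values were seen. Promoters were read from RefSeq (GRCh38.p14), and positions count from the start as 0 to the first base of a match. Not every leading gene of the clusters is reported here.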

Additional observations from a re-analysis of the deposited data

How the results depend on the processing

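No paired analysis was possible because each portion gave 1 library per assay and no result comes from a test. The share of all UMIs on the 52 genes, 0.553%, was 0.557% without doublets, 0.531% in the 20% matrix, 0.505% after thinning and 0.297% as the median over nuclei, where the few rich nuclei weigh less by construction. The count of genes at least 2-fold higher in the top nuclei was 48 to 50 of 52 under 9 alternatives. Under these, 1.6% to 2.36% of all genes tested were that much higher. Without a minimum for the background, which cannot change the count among the 52, the share was 6.58%. The count of the 52 at least 2-fold apart between clusters was 33 to 35 under all 8 alternatives. The share of all genes was not counted under these alternatives. In the main comparison it was 61.8%, near that of the 52 genes. Starts at 1.5 or more numbered 1, but 2 without doublets (1.98% of all starts), 0 without the barcodes called in both portions (1.85%) and 5 with the top 5% of nuclei (3.46%). The cause was not tested. CHR matches stood in 50% of promoters over the 150 bases before the start, where 7.98% of all promoters held one. CCAAT stood in 47.7% on the strand of the gene alone (20.8% of all promoters), and both motifs in 43.2% over 150 bases (2.14% of all) and 34.1% on the strand of the gene (2.17% of all). The shorter window and single strand hold fewer letters by construction. Among the named genes, 205 of 243 RNA ratios and 240 of 243 start ratios stayed within their intervals under the alternatives, and no direction was reversed among those called. In the 20% matrix KIF2C in cluster 4 and HMGB2 in cluster 2 were at distances of 0.71 and -0.84, under the 2-fold line, and HJURP in cluster 2 at -2.02. Counting the strongest peak alone, and leaving out the part of cluster 3 that ATAC set apart, were alternatives chosen after seeing the data. The values of cluster 4 in the 20% matrix rest on 55 nuclei.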

Other observations

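Genes outside all of the lists also stood high in the nuclei rich in the 52 genes. Those named here were picked after their values were seen, not in rank order, and genes such as NEURL1B (8.09), FAM72D (6.67), SAPCD2 (5.88) and MXD3 (5.64) stood above some of them. The values are a description. PIF1, a DNA helicase, had 135 thinned UMIs in the 646 top nuclei and 87 in the remaining 5810, a ratio of 13.96 (20.7 in the 20% library). NLGN1, a synaptic adhesion protein, had 500 and 503 UMIs, a ratio of 8.94 (8.15 in the 20% library). GAS2L3, a cytoskeletal linker of cytokinesis, had a ratio of 7.30, CEP55, a midbody protein, one of 4.43 and CIT, the citron kinase of the midbody, one of 4.25.

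UBE2S, which extends the ubiquitin chains that UBE2C begins, was at 4.02 in the same comparison. Between clusters it was lowest in cluster 0 too, at 129.9 CPM against 181.2 to 329.7 in the others, a much narrower span than the 28.2 against 103 to 229 of UBE2C. UBE2S was looked up because of UBE2C.

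The nuclei of RNA cluster 3 that ATAC set apart differed in single genes of the set as well. UBE2C stood at 305.1 CPM in the 441 nuclei of ATAC cluster 3 and at 109.1 in the 350 of ATAC cluster 4, and ANLN at 447.4 and 241.1. ANP32E went the other way, at 118.9 and 154.3.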
